A study of Macaca mulatta with 38 samples.

Results

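Neural stem cell cultures made from the cortex of fetal rhesus macaques (Macaca mulatta) at embryonic day 42 (E42) were compared between the transition phase and the stem phase. The comparison took 12 of the 38 bulk RNA-seq libraries of the series. The members are all E42 libraries that the labels place on days in vitro 6, 7 and 8 (transition, 6 libraries) or on days 1, 3 and 5 (stem, 6 libraries). Each phase had 3 libraries from Anterior cortex and 3 from Posterior cortex. All animals were wild type, and no transgene or drug was used.

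The tissue was taken at caesarean section, dissociated with papain and plated on polyornithine and fibronectin at 5% O2. Stem-phase cells grew in DMEM/F12 with N2 supplement and daily FGF2, the mitogen that keeps cortical progenitors dividing. After day 5 the FGF2 was withdrawn and the medium became NeuroBasal with B27, BDNF and NT-3, so that growth factor, supplement, neurotrophins and time in culture change together between the phases and cannot be told apart. RNA came from 2 wells per condition, with 1 library for each region and day. The days of a phase therefore serve as its replicates. P-values measure the spread between days of these cultures and not the spread between animals, and a drift within a phase is part of that spread.

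In the fetal cortex, radial glia divide at the ventricle under FGF and Notch signals. They give rise to intermediate progenitors that express EOMES, and these produce glutamatergic neurons. Interneurons that use GABA come mostly from the ventral telencephalon, although primate cortical progenitors in culture can also produce GABAergic cells. As a cell leaves the cycle to become a neuron it turns down DNA replication and turns on neuronal cytoskeleton, splicing and synapse genes.

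The 12 libraries held 25924161 to 38482028 counted reads each, with a median of 35740078.5, and 19564 of the 34619 genes in the count table were tested. Of these, 5028 carry provisional LOC names. The radial glial markers SOX2 (479, 613 and 721 CPM, the count scaled to a common library size, as lowest, median and highest of the transition libraries, against 347, 533 and 793 CPM in stem libraries) and PAX6 were present in every library. The 2 regions differed in cells other than neural ones. The summed CPM of 19 fibroblast and meningeal markers was 25670, 16110 and 21610 in Anterior transition libraries and 19680, 32230 and 42440 in Anterior stem libraries, in order of day. It was 392.5, 381.9 and 279.0 in Posterior transition libraries and 646.7, 690.8 and 467.0 in Posterior stem libraries. Of 12 microglial markers 1 had enough counts to be tested, and of 7 erythroid markers in the file none did. In a principal component analysis of the 12 libraries the first component (62.4% of the variance) separated the regions. The second component (19.7%) ran with day, with scores of 50.2, 33.9, -8.31, -25.8, -38.3 and -45.3 in Anterior and 43.7, 24.3, 9.99, -7.05, -14.4 and -23.0 in Posterior on days 1, 3, 5, 6, 7 and 8.

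With region as a block, 2669 genes (13.6% of those tested) were higher and 2102 (10.7%) lower in transition libraries than in stem libraries (edgeR quasi-likelihood test, Benjamini-Hochberg adjusted over all genes tested, threshold 0.05). With day as a random block over the 2 regions the counts were 1981 and 1397, and on log2(RPKM + 1) values they were 2708 and 1327. The median log2 fold change over all genes was 0.0166. Counts of list members over both regions, given below, are to be read beside the shares of 13.6% higher and 10.7% lower. In 946 of the called genes, and in 974 genes (4.98%) in all, the 6 transition libraries did not overlap the 6 stem libraries. Without the Anterior library of day 7, 1271 genes were lower. Below, CPM values are given as the lowest, median and highest of the 6 libraries of a phase, log2 fold changes are transition over stem with the standard error of the fit, and adjusted p-values are those of this edgeR test. Where the 2 regions lie far apart, the pooled median CPM falls between them and is the level of neither. In bulk RNA a lower level can mean fewer cells of a type or less RNA per cell, and the counts cannot tell these apart.

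**Figure D1:**
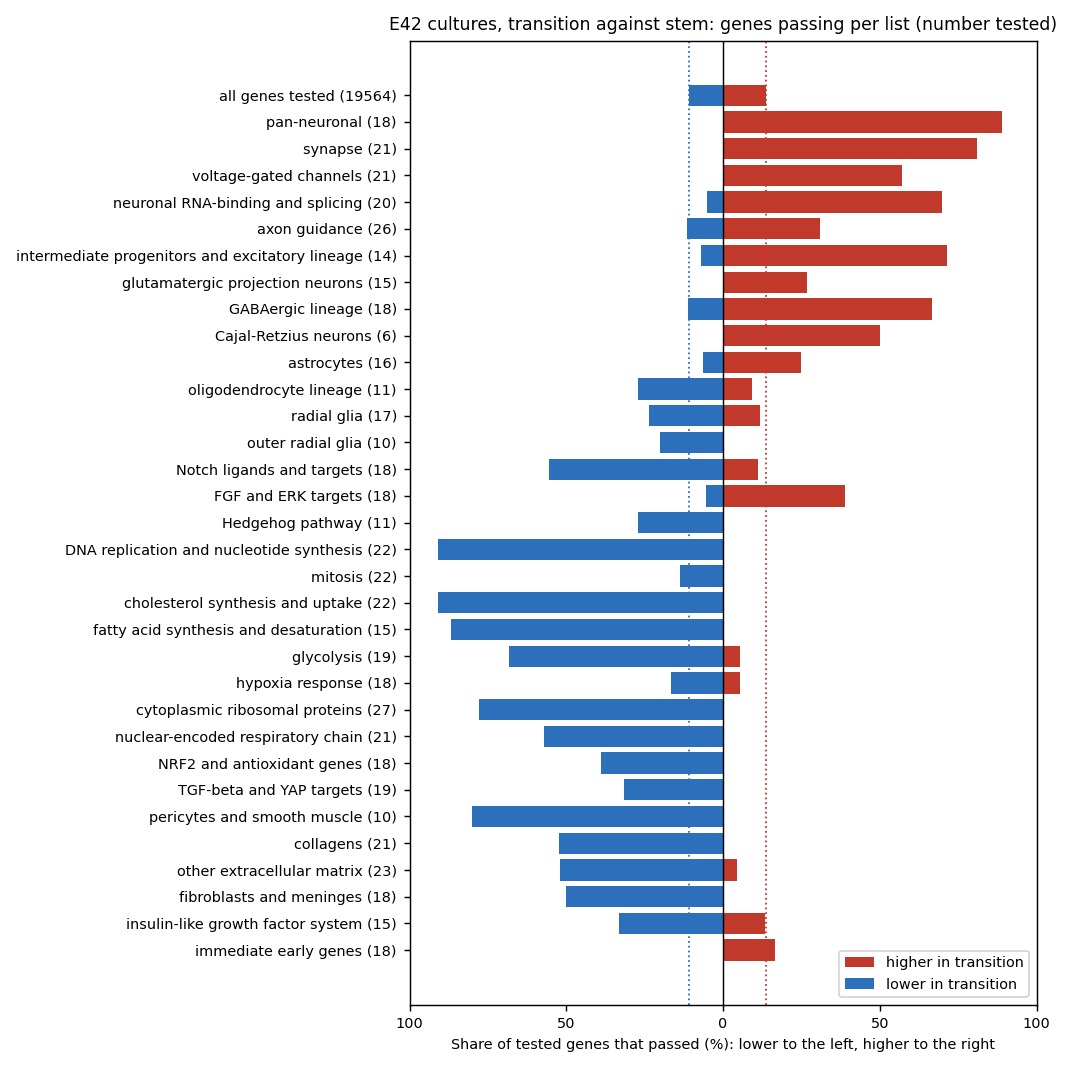
Share of tested genes that passed in each gene list (horizontal axis, percent), with genes higher in the transition drawn to the right and genes lower to the left, and the number tested in brackets. Dotted lines mark the shares over all genes tested, 13.6% higher and 10.7% lower. The neuronal bars at the top reach past the right line, with 16 of 18 pan-neuronal genes higher, and those for lipid synthesis and replication reach past the left line, with 20 of 22 cholesterol genes lower.

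Genes of young neurons rose. Of 18 pan-neuronal genes tested, 16 were higher and 0 lower, with a median log2 fold change of 1.30. NSG2, an endosomal protein of neurons, had 41.4, 115 and 302 CPM in transition libraries, against 10.6, 14.8 and 39.1 CPM in stem libraries, a log2 fold change of 2.73 ± 0.44 (adjusted p = 0.00311). All transition libraries lay above all stem libraries. The same separation held for MYT1L, a transcription factor that represses non-neuronal fates (21.0, 32.0 and 45.8 CPM in transition libraries, against 4.14, 5.67 and 11.5 CPM in stem libraries; 2.17 ± 0.30, adjusted p = 0.00288). DCX, the microtubule protein of migrating neuroblasts, had 1603, 1922 and 2089 CPM in transition libraries, against 299, 684 and 1317 CPM in stem libraries (1.33 ± 0.28, adjusted p = 0.00748). DCX was also higher on each later day in both regions, at 299, 485, 1077, 1603, 1922 and 2024 CPM in Anterior and 653, 714, 1317, 1718, 1922 and 2089 CPM in Posterior. STMN2, a microtubule regulator of growing axons, changed by 1.83 ± 0.40 (adjusted p = 0.00858) with no overlap of the phases. The neurofilament gene NEFM rose by 1.56 ± 0.34 (adjusted p = 0.00799), and RBFOX3, which encodes the NeuN antigen of mature neurons, rose by 2.69 ± 0.47 (adjusted p = 0.00382) but stayed low, with a highest library of 10.6 CPM in the transition and 1.05 CPM in the stem phase. In Posterior libraries, where fibroblast markers summed to at most 690.8 CPM, 4 of the 18 genes passed (against 3.81% of all genes higher there) with a list median of 1, and in Anterior 15 passed (against 6.94%) with a median of 1.49.

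Synaptic genes rose with the cytoskeleton. Of 21 synapse genes 17 were higher and 0 lower (median 0.99), and of 21 voltage-gated channel genes 12 were higher and 0 lower (median 0.92). GRIN2B, the NMDA receptor subunit of immature synapses, had 1.67, 13.7 and 50.1 CPM in transition libraries, against 0.671, 2.44 and 9.92 CPM in stem libraries (2.09 ± 0.44, adjusted p = 0.00759). The phases overlapped when the regions were pooled, and in each region all 3 transition libraries lay above all 3 stem libraries. The partner subunit GRIN1 rose by 1.48 ± 0.23 (adjusted p = 0.00293), the presynaptic adhesion gene NRXN3 by 1.75 ± 0.36 (adjusted p = 0.00675) and the SNARE gene SNAP25 by 1.40 ± 0.26 (adjusted p = 0.00464), all without overlap. KCNQ3, a subunit of the M-type potassium channel, rose by 1.46 ± 0.23 and the inward rectifier KCNJ3 by 1.71 ± 0.30.

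Several of the 15 largest rises were genes of synapses and neuronal membranes. LRFN2, a synaptic adhesion protein that binds PSD-95, had 4.70, 10.3 and 31.3 CPM in transition libraries, against 0.574, 1.02 and 2.87 CPM in stem libraries (3.24 ± 0.54, adjusted p = 0.00350), with no overlap. BRINP1 (2.54 ± 0.42), the glutamate receptor gene GRM4 (2.19 ± 0.34) and the calcium-binding copine CPNE6 (2.23 ± 0.35) also separated the phases completely. The cadherin CDH7 rose by 2.58 ± 0.51, with overlap between the pooled phases. MMRN1, which is not counted here as a synaptic or neuronal membrane gene, had the largest of the 15 rises (3.40 ± 0.59), also with overlap. It reached 43.7 CPM in the Anterior library of day 8 against at most 3.35 CPM in any Posterior library.

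RNA-binding and splicing genes of neurons followed the same course, with 14 of 20 higher and 1 lower (median 0.87). CELF4, a neuronal regulator of mRNA stability and translation, had 54.1, 82.3 and 101 CPM in transition libraries, against 9.35, 23.6 and 45.9 CPM in stem libraries (1.77 ± 0.32, adjusted p = 0.00428). SRRM3, a splicing factor for neuronal microexons, rose by 1.56 ± 0.30 and RBFOX1 by 1.68 ± 0.28, and neither overlapped between phases. The gene that fell was PTBP1, which represses neuronal splicing in progenitors, with 213, 264 and 329 CPM in transition libraries, against 303, 383 and 487 CPM in stem libraries (-0.50 ± 0.13, adjusted p = 0.0173).

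**Figure D2:**
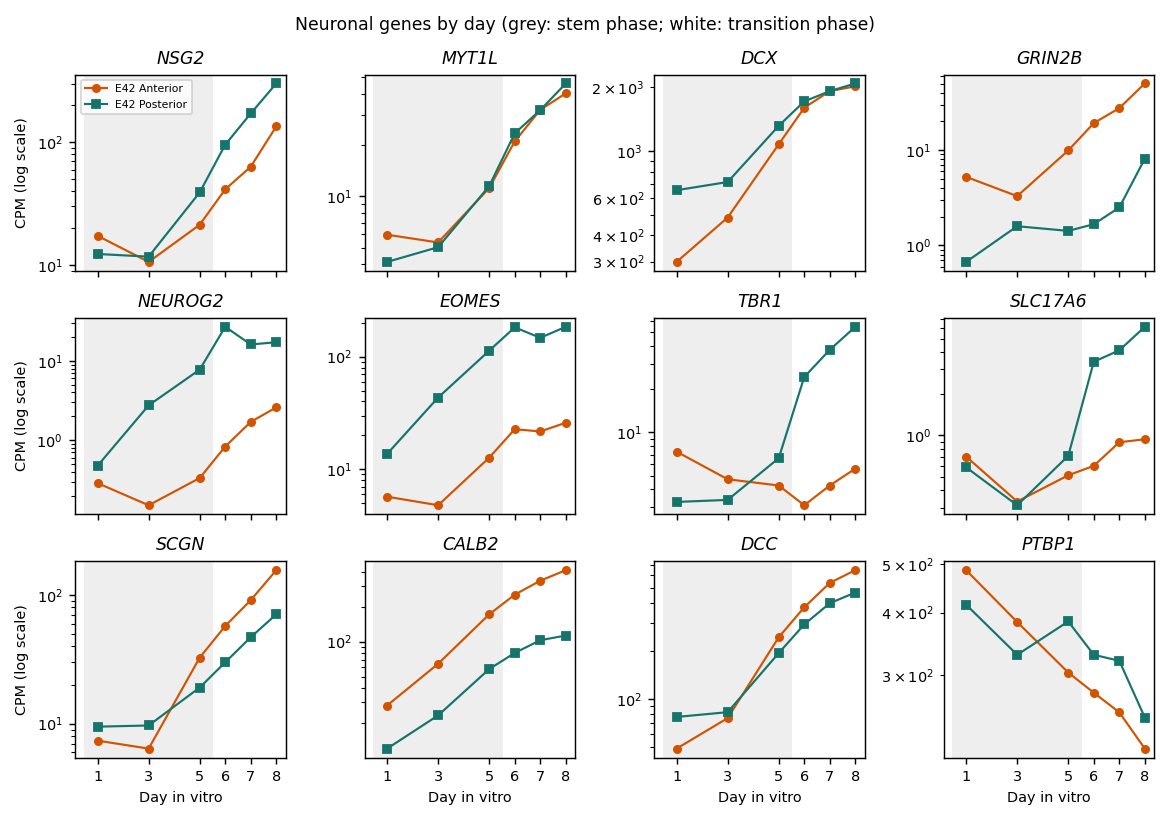
CPM on a log axis by day in vitro for 12 neuronal and lineage genes, with a line for each region, a grey field for the stem days 1, 3 and 5 and a white field for the transition days 6, 7 and 8. NSG2, MYT1L, DCX and SCGN are higher on transition days in both regions. TBR1 and SLC17A6 stand apart by region on these days, with TBR1 at 24.4 to 54.7 CPM in Posterior and 3.10 to 5.59 CPM in Anterior on the transition days.

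Genes of intermediate progenitors and the excitatory lineage had the highest median among the neural lists, 1.44, with 10 of 14 higher and 1 lower. NEUROG2, the proneural factor of cortical glutamatergic neurons, had 0.832, 9.34 and 26.9 CPM in transition libraries, against 0.151, 0.404 and 7.76 CPM in stem libraries (2.55 ± 0.53, adjusted p = 0.00709). EOMES, the marker of intermediate progenitors, had 21.7, 86.5 and 184 CPM in transition libraries, against 4.80, 13.2 and 113 CPM in stem libraries (1.59 ± 0.40, adjusted p = 0.0151). Both genes had higher levels in Posterior, overlapped when the regions were pooled and separated the phases within each region. NEUROD4, a factor downstream of NEUROG2, rose by 3.25 ± 0.67 (adjusted p = 0.00658). Without the Posterior library of day 5, the highest stem library of both genes, the changes were 3.24 for NEUROG2 and 4.31 for NEUROD4. PPP1R17, which marks primate intermediate progenitors, rose by 1.83 ± 0.30 (adjusted p = 0.00311). NEUROD1, a later factor of the same cascade, had 0.287, 2.07 and 4.19 CPM in transition libraries, against 0.302, 0.394 and 0.511 CPM in stem libraries (1.98 ± 0.46, adjusted p = 0.0108), with fitted changes of 0.49 in Anterior and 3.12 in Posterior.

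Of 15 genes of glutamatergic projection neurons 4 were higher, against 13.6% of all genes, and 0 lower (median 0.47). The vesicular glutamate transporters SLC17A7 (2.29 ± 0.46, adjusted p = 0.00591) and SLC17A6 (1.96 ± 0.45, adjusted p = 0.00974) rose. BCL11B, a deep-layer and striatal factor, had 133, 166 and 195 CPM in transition libraries, against 31.0, 70.3 and 124 CPM in stem libraries (1.17 ± 0.24, adjusted p = 0.00680), with no overlap. BHLHE22 rose by 1.34 ± 0.27. TBR1, the factor of the earliest cortical neurons, did not pass over both regions (1.44 ± 0.63, adjusted p = 0.115), with 24.4, 37.8 and 54.7 CPM on days 6, 7 and 8 in Posterior and 3.10, 4.26 and 5.59 CPM in Anterior.

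GABAergic genes were higher in 12 of 18 cases and lower in 2 (median 0.88). GAD1, a GABA-synthesising enzyme, had 105, 128 and 147 CPM in transition libraries, against 22.4, 49.3 and 80.2 CPM in stem libraries (1.26 ± 0.26, adjusted p = 0.00638). SP9, a factor of interneuron precursors, had 91.1, 125 and 139 CPM in transition libraries, against 12.2, 51.5 and 89.9 CPM in stem libraries (1.34 ± 0.32, adjusted p = 0.0120). Neither gene overlapped between phases. The calcium-binding genes SCGN (2.33 ± 0.45, adjusted p = 0.00512) and CALB2 (1.79 ± 0.43, adjusted p = 0.0124) and the vesicular GABA transporter SLC32A1 (1.63 ± 0.42, adjusted p = 0.0175) rose as well. Of 6 tested Cajal-Retzius genes 3 were higher and 0 lower. Among them RELN, the extracellular signal of these first-born neurons, rose by 1.07 ± 0.28 (adjusted p = 0.0177), and the calcium channel subunit gene CACNA2D2 by 1.25 ± 0.22 (adjusted p = 0.00382).

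Axon guidance genes did not move as a block, with 8 of 26 higher and 3 lower (median 0.26). DCC, the netrin receptor, had 294, 433 and 646 CPM in transition libraries, against 48.5, 79.5 and 244 CPM in stem libraries (1.90 ± 0.38, adjusted p = 0.00611), with no overlap. The second netrin receptor UNC5C rose by 1.73 ± 0.37 and the ephrin receptor EPHA5 by 1.71 ± 0.25. The secreted repellent SLIT3 fell by 2.27 ± 0.49 (adjusted p = 0.00804), with a median of 2.28 CPM in transition libraries and 21.7 CPM in stem libraries, and it overlapped between phases.

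Replication genes fell in nearly every case. Of 22 genes of DNA replication and nucleotide synthesis 0 were higher and 20 lower, with a median of -0.64. TYMS, thymidylate synthase, had 65.7, 85.7 and 91.3 CPM in transition libraries, against 106, 147 and 213 CPM in stem libraries (-0.88 ± 0.14, adjusted p = 0.00293), with no overlap. The helicase genes MCM5 (-0.84 ± 0.17) and CDC45 (-0.77 ± 0.18) and UHRF1, which carries DNA methylation through S phase (-0.75 ± 0.18), fell as well. Of 22 mitosis genes 3 were lower, against 10.7% of all genes, and 0 higher (median -0.24). Among the 3 was the checkpoint kinase BUB1 (-0.44 ± 0.11, adjusted p = 0.0157). MKI67, which marks cycling cells, had 402, 582 and 669 CPM in transition libraries, against 482, 597 and 892 CPM in stem libraries, and did not pass (-0.19 ± 0.11, adjusted p = 0.225). The count of mitosis genes lower was 8 when both libraries of day 6 were left out and 0 with no region block. Of 11 G1 genes 4 were lower, including the kinase CDK6 (-0.92 ± 0.24) and the inhibitor CDKN1A (-0.91 ± 0.20).

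Over both regions 2 of 17 radial glial genes were higher and 4 lower (median -0.06). Without day 1 in the stem phase these were 1 and 1. In Anterior 5 were higher and 0 lower (median 0.35), against 6.94% and 6.52% of all genes there. In Posterior 0 were higher and 3 lower (median -0.41), against 3.81% and 2.56%. No member passed the test of the region difference without a day block, and 1 passed with it, more positive in Anterior. The intermediate filaments VIM (-0.57 ± 0.13, adjusted p = 0.00976) and NES (-0.57 ± 0.15, adjusted p = 0.0204) fell. PAX6, a cortical progenitor factor, had 149, 216 and 241 CPM in transition libraries, against 78.4, 134 and 206 CPM in stem libraries (0.68 ± 0.17, adjusted p = 0.0151), with fitted changes of 1.09 in Anterior and 0.27 in Posterior. TFAP2C, another factor of cortical progenitors, rose by 1.2 ± 0.24 (adjusted p = 0.00632), and SOX2 did not pass (0.20 ± 0.10, adjusted p = 0.170). Of 10 genes of outer radial glia, the subventricular type abundant in primates, 2 were lower and 0 higher. In Anterior 1 was higher and 1 lower (median 0.19), and in Posterior 0 were higher and 3 lower (median -0.88). The integrin ITGB5 had 94.1, 127 and 163 CPM in transition libraries, against 197, 248 and 332 CPM in stem libraries (-0.98 ± 0.15, adjusted p = 0.00293), and HOPX had a change of -0.32 ± 0.31 (adjusted p = 0.476).

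Notch pathway genes were lower in 10 of 18 cases and higher in 2 (median -0.55). HEY2, a transcriptional target, had 3.98, 8.49 and 25.0 CPM in transition libraries, against 8.31, 35.2 and 84.0 CPM in stem libraries (-1.45 ± 0.30, adjusted p = 0.00652). The ligand JAG1 fell by 1 ± 0.26 (adjusted p = 0.0176), whereas the ligand DLL4 rose by 1.11 ± 0.27 (adjusted p = 0.0134). The target HES5 had 20.9, 41.7 and 68.7 CPM in transition libraries, against 59.3, 73.5 and 103 CPM in stem libraries (-0.88 ± 0.29, adjusted p = 0.0422), and its call was lost in 8 of the 12 fits that each left out 1 library, with adjusted p up to 0.0927. Without day 1 in the stem phase, 5 of the Notch ligands and targets were lower and 2 higher.

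Genes that report FGF and ERK signalling did not fall together after FGF2 was withdrawn. Of 18 FGF and ERK targets 7 were higher and 1 lower (median 0.32). In Anterior 5 were higher and 1 lower (median 0.53), and in Posterior 2 were higher and 1 lower (median 0.03). With or without a day block, 0 of them passed the test of the region difference. DUSP4, a phosphatase that dampens ERK, had 128, 208 and 402 CPM in transition libraries, against 40.7, 60.2 and 91.3 CPM in stem libraries (1.93 ± 0.33, adjusted p = 0.00373). DUSP5, a nuclear ERK phosphatase, had 4.38, 5.91 and 6.83 CPM in transition libraries, against 1.16, 1.84 and 3.69 CPM in stem libraries (1.48 ± 0.26, adjusted p = 0.00396). Neither overlapped between phases, and the ERK inhibitor SPRY4 rose by 0.88 ± 0.24 (adjusted p = 0.0198) with overlap. The gene that fell was FGFBP3, which binds and releases FGF2, with 46.0, 66.7 and 130 CPM in transition libraries, against 187, 318 and 468 CPM in stem libraries (-2.04 ± 0.31, adjusted p = 0.00293). FGFBP3 was lower on each later day in both regions, at 384, 266, 187, 130, 67.2 and 49.2 CPM in Anterior and 468, 370, 205, 96.6, 66.1 and 46.0 CPM in Posterior. ETV4, an ERK-dependent transcription factor, did not pass (-0.65 ± 0.35, adjusted p = 0.194).

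In the Hedgehog pathway 3 of 11 genes were lower and 0 higher. Within the stem phase, 3 members of this list were already lower on day 5 than on day 1, against 2.38% of all genes. GLI1, the transcriptional output of the pathway, had 0.103, 0.467 and 1.23 CPM in transition libraries, against 1.30, 6.42 and 12.8 CPM in stem libraries (-3.73 ± 0.45, adjusted p = 0.00286), with no overlap. HHIP, a target that binds the ligand, fell by 2.28 ± 0.49 (adjusted p = 0.00795) without overlap, and GLI2, which carries the signal, by 0.61 ± 0.12.

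Genes that time early progenitors divided in both directions, with 2 of 12 higher and 3 lower. Here too 3 members were lower on day 5 than on day 1, both in FGF2 medium, and 0 were higher. IGF2BP1, an RNA-binding protein of young progenitors, had 21.5, 28.8 and 35.3 CPM in transition libraries, against 43.7, 69.4 and 90.1 CPM in stem libraries (-1.24 ± 0.19, adjusted p = 0.00301), and the chromatin gene HMGA2 fell by 1.27 ± 0.31 (adjusted p = 0.0127). Both separated the phases. LIN28A, the let-7 inhibitor, went the other way at a low level, with 0.774, 1.09 and 1.70 CPM in transition libraries, against 0.0319, 0.173 and 0.333 CPM in stem libraries (2.61 ± 0.35, adjusted p = 0.00286). TRIM71, a partner of the same pathway, rose by 1.04 ± 0.28 (adjusted p = 0.0193). Of 10 NFI and late progenitor genes 1 was higher, NFIB (0.51 ± 0.11, adjusted p = 0.00887).

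Among 16 astrocyte genes 4 were higher and 1 lower (median 0.21). AQP4, the water channel of astrocyte endfeet, had 16.8, 27.9 and 63.6 CPM in transition libraries, against 2.97, 6.47 and 21.8 CPM in stem libraries (1.88 ± 0.43, adjusted p = 0.0101). The glutamate transporter gene SLC1A2 had 6.28, 10.6 and 25.8 CPM in transition libraries, against 1.78, 3.38 and 6.12 CPM in stem libraries (1.84 ± 0.25, adjusted p = 0.00286), with no overlap. GFAP rose by 0.32 ± 0.08 (adjusted p = 0.0197) and the adhesion gene HEPACAM by 0.53 ± 0.14. Of 11 oligodendrocyte lineage genes 1 was higher and 3 lower, with falls of the lineage factors OLIG1 (-1.26 ± 0.34, adjusted p = 0.0205) and OLIG2 (-1.21 ± 0.33, adjusted p = 0.0207).

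Lipid synthesis fell in nearly every gene measured. Of 22 genes of cholesterol synthesis and uptake 0 were higher and 20 lower (median -0.98), and of 15 genes of fatty acid synthesis and desaturation 0 were higher and 13 lower (median -0.68). HMGCS1, the entry enzyme of the mevalonate pathway, had 192, 274 and 329 CPM in transition libraries, against 455, 767 and 883 CPM in stem libraries (-1.41 ± 0.19, adjusted p = 0.00286). SCD, the fatty acid desaturase, had 252, 301 and 419 CPM in transition libraries, against 662, 832 and 1019 CPM in stem libraries (-1.36 ± 0.16, adjusted p = 0.00286). Both separated the phases in full. On days 1, 3, 5, 6, 7 and 8 HMGCS1 stood at 771, 883, 481, 329, 192 and 278 CPM in Anterior and 763, 815, 455, 270, 209 and 287 CPM in Posterior, so that the level of day 5, still in FGF2 medium, lay below days 1 and 3.

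The regulators of these pathways fell as well. SREBF1, the master factor of fatty acid synthesis, had 90.0, 105 and 150 CPM in transition libraries, against 205, 220 and 287 CPM in stem libraries (-1.02 ± 0.14, adjusted p = 0.00286). SREBF2, which drives cholesterol synthesis, fell by 0.52 ± 0.09, without overlap. FDPS (-1.36 ± 0.20), FASN (-0.95 ± 0.15), ACSS2 (-1.07 ± 0.18) and ME1 (-1.80 ± 0.45), all enzymes of these routes, passed. ABCG1, a sterol exporter, rose by 1.07 ± 0.22 (adjusted p = 0.00634), with 19.4, 21.5 and 29.7 CPM in transition libraries, against 6.99, 9.80 and 15.8 CPM in stem libraries.

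Fatty acid oxidation and PPAR genes moved in both directions, with 4 of 11 higher and 3 lower, or 1 and 2 of the fatty acid oxidation and PPAR targets without day 1 or without day 6. CPT1A, the gate of mitochondrial fatty acid import, rose by 1.35 ± 0.33 (adjusted p = 0.0138). ANGPTL4 was highest on days 6 and 7, at 23.9 and 48.8 CPM in Anterior and 5.10 and 10.4 CPM in Posterior, and stood at 1.31 and 0.0368 CPM in these regions on day 8. PDK4, which diverts pyruvate from oxidation, had the same shape, with 7.94, 25.1 and 1.72 CPM in Anterior and 6.2, 7.04 and 0.700 CPM in Posterior on days 6, 7 and 8. Their changes over the phase were 2.98 ± 0.98 (adjusted p = 0.0434) and 2.46 ± 0.83 (adjusted p = 0.0484), and the calls were lost in 8 and 9 of the 12 fits that each left out 1 library, with adjusted p up to 0.111 and 0.108. Without the Anterior library of day 7 the PDK4 change was 1.80, and without that of day 5 the ANGPTL4 change was 3.65. FABP3, a fatty acid carrier, fell by 3.90 ± 0.71 (adjusted p = 0.00446).

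Glycolysis genes were lower in 13 of 19 cases and higher in 1 (median -0.52). The neuronal glucose transporter SLC2A3 fell by 0.89 ± 0.19 (adjusted p = 0.00793). LDHA, the lactate-forming dehydrogenase, had 97.3, 113 and 127 CPM in transition libraries, against 116, 185 and 341 CPM in stem libraries (-0.88 ± 0.24, adjusted p = 0.0214). The LDHA call was lost without the Anterior library of day 7 (adjusted p = 0.0561) or of day 8 (adjusted p = 0.0527). The gene that rose was ENO2, the neuronal enolase, with 61.6, 71.9 and 98.3 CPM in transition libraries, against 24.8, 32.6 and 47.9 CPM in stem libraries (1.13 ± 0.18, adjusted p = 0.00307), with no overlap. Hypoxia response genes had 1 of 18 higher and 3 lower, against 24.4% of all genes called, with LOX (-1.31 ± 0.38) and P4HA1 (-0.80 ± 0.23), enzymes of collagen crosslinking and hydroxylation, among those lower. No member of the hypoxia response list passed when day 1 was left out. Both lost the call without each of the 3 Anterior transition libraries in turn, with values of -1.25, -1.05 and -1.23 for LOX and -0.73, -0.68 and -0.75 for P4HA1 on leaving out days 6, 7 and 8.

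Housekeeping groups fell by small amounts in many members. Of 27 cytoplasmic ribosomal protein genes 21 were lower and 0 higher (median -0.29), and of 21 nuclear-encoded respiratory chain genes 12 were lower and 0 higher (median -0.28). RPS2 had 620, 707 and 862 CPM in transition libraries, against 1024, 1144 and 1195 CPM in stem libraries (-0.66 ± 0.09, adjusted p = 0.00286), and RPL8 fell by 0.70 ± 0.11. Ribosomal protein genes have many processed pseudogenes, and how the authors' counting treated reads shared with these was not given in the sources used here. UQCRC1 (-0.45 ± 0.07) and SDHA (-0.41 ± 0.06), subunits of respiratory complexes, separated the phases. Of the nuclear-encoded respiratory chain genes 7 were lower without day 1, without day 6 or on log2(RPKM + 1) values, and 18 by the DESeq2 Wald test.

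NRF2 and antioxidant genes were lower in 7 of 18 cases, including thioredoxin, TXN (-0.77 ± 0.18). Amino acid and unfolded protein stress genes were lower in 5 of 22 cases and higher in 0, among them PHGDH of serine synthesis (-0.48 ± 0.08, adjusted p = 0.00328). Lysosomal genes were lower in 5 of 17 cases, among them the cholesterol carrier NPC2 (-0.74 ± 0.12, adjusted p = 0.00304).

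**Figure D3:**
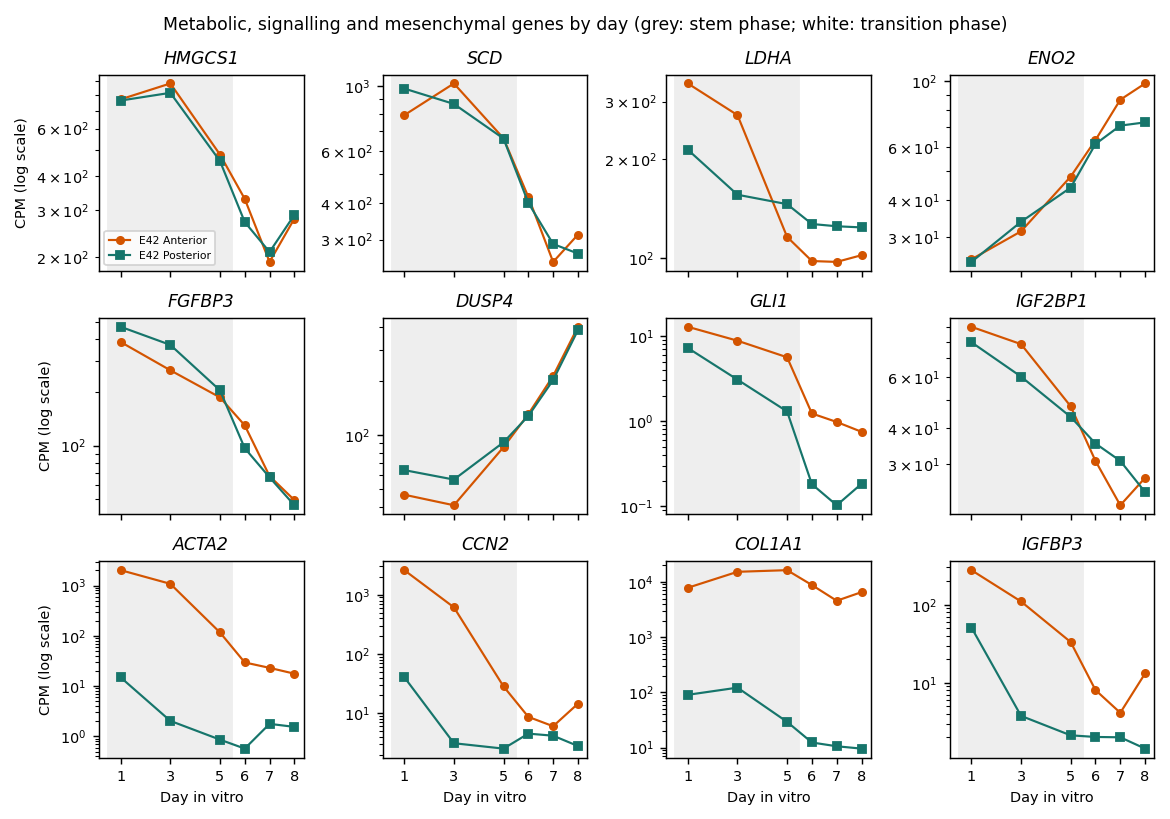
CPM on a log axis by day in vitro for 12 genes that changed, with a line for each region and a grey field for the stem days. HMGCS1 and SCD lie close together in the 2 regions, whereas ACTA2, CCN2 and COL1A1 lie far higher in Anterior, with ACTA2 at 2024 CPM on day 1 in Anterior and 14.9 CPM in Posterior.

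The lists of pericyte and smooth muscle genes and of TGF-beta and YAP targets had low medians, and the genes described here had far higher CPM in Anterior libraries on days 1 and 3. Of 10 pericyte and smooth muscle genes 8 were lower and 0 higher (median -1.44), and 4 of the pericytes and smooth muscle list were lower without day 6. Of 19 TGF-beta and YAP targets 6 were lower and 0 higher (median -1.34), with 14 lower by the DESeq2 Wald test and 3 when day 1 or day 6 was left out. MYOCD, the master coactivator of smooth muscle, had 0, 0.113 and 0.602 CPM in transition libraries, against 0.0852, 1.56 and 94.8 CPM in stem libraries (-6.14 ± 1.27, adjusted p = 0.00680). Its Anterior levels on days 1, 3 and 5 were 94.8, 20.0 and 2.21 CPM, and without the Anterior library of day 1 the change was -4.35 (adjusted p = 0.0114). The MYOCD call was lost with day as a random block (limma, -5.32, adjusted p = 0.0557) and with 1 value per day (adjusted p = 0.0597). The smooth muscle actins ACTA2 (-4.20 ± 1.01, adjusted p = 0.0127) and ACTG2 (-5.35 ± 0.79, adjusted p = 0.00293), transgelin, TAGLN (-3.70 ± 0.76, adjusted p = 0.00676), and calponin, CNN1 (-5.71 ± 0.97, adjusted p = 0.00370), fell with it. ACTA2 stood at 2024, 1083, 117, 29.6, 23.1 and 17.7 CPM on days 1, 3, 5, 6, 7 and 8 in Anterior, and at 14.9, 2.04, 0.865, 0.573, 1.78 and 1.55 CPM in Posterior, where the phases overlapped. The ACTA2 call was lost without day 1 (-3.29, adjusted p = 0.0560), without day 6 (-3.90, adjusted p = 0.0629) and with 1 value per day (adjusted p = 0.0618). Without the Anterior library of day 1 the CNN1 change was -4.89.

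CCN2, a secreted target of both TGF-beta and YAP, had 2602, 614, 28.4, 8.69, 6.04 and 14.5 CPM in Anterior and 40.7, 3.12, 2.53, 4.53, 4.18 and 2.80 CPM in Posterior on the same days. Its change was -4.51 ± 1.43 (adjusted p = 0.0382), and the call was lost in 7 of the 12 fits that each left out 1 library, with adjusted p up to 0.136. The change was -3.50 without the Anterior library of day 1, -3.88 without that of day 6 and -3.84 without that of day 7, and -5.19 without the Posterior library of day 3 or of day 5. INHBA, which encodes the activin A chain, fell by 4.12 ± 0.99 (adjusted p = 0.0128), and by 3.52 without the Anterior library of day 1. CAV1, the caveolar coat protein, fell by 3.19 ± 0.75, and by 2.18 without the Posterior library of day 1. The INHBA call was lost without day 1 (adjusted p = 0.0678), without day 6 (adjusted p = 0.0513) and with 1 value per day (adjusted p = 0.0640), and the CAV1 call without day 1 (-1.68, adjusted p = 0.0513) and with 1 value per day (adjusted p = 0.107).

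Many matrix genes were lower in transition libraries too, with another course over the stem days. In Anterior the collagen list had a mean log2 CPM of 8.85, 8.89 and 8.9 on days 1, 3 and 5. The TGF-beta and YAP targets had 8.1, 7.44 and 5.72 on those days. Of 21 collagen genes 11 were lower and 0 higher (median -0.90), and of 23 other matrix genes 12 were lower and 1 higher (median -0.67). With no region block 1 of the collagens was lower and 0 of the other extracellular matrix genes, and without day 1 these were 10 and 8. COL1A1, the main chain of type I collagen, had 8780, 4561 and 6528 CPM in Anterior transition libraries, against 7839, 15238 and 16315 CPM in Anterior stem libraries, which overlap. In Posterior it had 12.4, 10.6 and 9.61 CPM in transition libraries, against 90.5, 122 and 29.3 CPM in stem libraries, which do not. Its change over both regions was -1.92 ± 0.44 (adjusted p = 0.00998). COL2A1 (-2.33 ± 0.47), COL8A1 (-3.57 ± 0.66), biglycan, BGN (-1.99 ± 0.37), periostin, POSTN (-2.48 ± 0.51), and aggrecan, ACAN (-3.29 ± 0.77), passed. Without the Anterior library of day 1 the ACAN change was -2.43. The matrix gene that rose was NCAN, a chondroitin sulfate proteoglycan of brain matrix (1.06 ± 0.30, adjusted p = 0.0234), with 1877, 2149 and 3320 CPM in transition libraries, against 566, 1121 and 2118 CPM in stem libraries. That call was lost without the Anterior library of day 1 (adjusted p = 0.0536) or of day 3 (adjusted p = 0.0504).

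Of 18 fibroblast and meningeal genes tested 9 were lower and 0 higher (median -0.87), with 6 of the fibroblasts and meninges list lower without day 6. The receptor PDGFRB had 31.8, 62.1 and 280 CPM in transition libraries, against 64.1, 305 and 807 CPM in stem libraries (-1.42 ± 0.28, adjusted p = 0.00563). The transcription factors TBX18 (-1.75 ± 0.30) and FOXC2 (-1.90 ± 0.46) fell. Decorin, DCN, a defining fibroblast gene, did not pass (0.24 ± 0.30, adjusted p = 0.596). It ranged from 5.27 to 1011 CPM in transition libraries and from 6.63 to 1191 CPM in stem libraries. The pooled medians of 410 and 162 CPM fall between libraries far apart and are no typical level. Without the Anterior library of day 5, the median of the other stem libraries was 9.88 CPM. The summed pericyte and smooth muscle markers were 977.9, 682.3 and 403.7 CPM in Anterior transition libraries and 6072, 5085 and 1992 CPM in Anterior stem libraries. In Posterior they were 482.1, 451.6 and 277.1 CPM in transition libraries and 600.9, 654.7 and 578.4 CPM in stem libraries. In Anterior the pericyte and smooth muscle sum was lower on each later day, whereas the fibroblast sum given above was higher on days 3 and 5 than on day 1. The part of these cells in the contractile and matrix results was not tested. Of 9 endothelial genes 1 was lower, the VEGF receptor FLT1 (-3.19 ± 0.82, adjusted p = 0.0170). Its change was -2.11 without the Anterior library of day 1, and the call was lost without that of day 7 (-2.97, adjusted p = 0.0511).

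Of 15 genes of the insulin-like growth factor system 2 were higher and 5 lower (median 0). Of the 6 binding proteins tested IGFBP2, IGFBP3 and IGFBP7 were lower, and IGFBP4 (0.05), IGFBP5 (0.19) and IGFBP6 (0.63) did not pass. IGFBP3, the main carrier of IGFs in serum, had 1.44, 3.09 and 13.2 CPM in transition libraries, against 2.13, 42.2 and 277 CPM in stem libraries (-3.74 ± 0.79, adjusted p = 0.00742), and the phases did not overlap within either region. Without the Posterior library of day 1 its change was -2.87. PAPPA, a protease that frees IGFs from their carriers, fell by 3.84 ± 0.72 (adjusted p = 0.00467), and by 3.18 without the Anterior library of day 1. IGFBP7 fell by 2.63 ± 0.42. IGFBP2, the binding protein of neural progenitors, fell by 0.78 ± 0.10 (adjusted p = 0.00286), with fitted changes of -0.78 in both regions. IGF2 did not pass (-0.88 ± 0.36, adjusted p = 0.0899), and its level was 2243, 1644 and 1761 CPM in Anterior transition libraries, against 1495, 1709 and 3681 CPM in Anterior stem libraries. ENPEP, an aminopeptidase of pericytes and other cells, was among the 15 largest falls (-3.33 ± 0.49, adjusted p = 0.00293).

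Several groups were chosen because the media differ in hormones and factors that act on them. The shares of members that passed are to be read against the 24.4% called over all genes. Of 13 glucocorticoid targets 3 were higher and 1 lower. ZBTB16, a transcription factor induced by glucocorticoids, had 12.1, 17 and 24.4 CPM in transition libraries, against 3, 5.82 and 11.5 CPM in stem libraries (1.44 ± 0.25, adjusted p = 0.00373), whereas FKBP5, a chaperone often used as a reporter of the hormone, fell by 0.63 ± 0.12 (adjusted p = 0.00519). DUSP1 rose by 0.59 ± 0.12. Of 18 retinoid genes 2 were higher and 1 lower, and MEIS2, a factor of striatal and other forebrain neurons, rose by 0.76 ± 0.18 (adjusted p = 0.0120). Of 12 neurotrophin receptor and response genes 2 were higher and 1 lower, the risers being NPTX1, a secreted synaptic pentraxin (1.37 ± 0.21, adjusted p = 0.00293), and the neuropeptide gene CRH, at no more than 1.78 CPM in any library (1.53 ± 0.34, adjusted p = 0.00887). Thyroid hormone genes had 1 of 10 higher and 1 lower, iron genes 1 of 11 higher and 1 lower, and LXR targets 3 of 9 higher and 1 lower. Among 7 osmolyte genes 1 was higher, the osmotic response factor NFAT5 (0.28, adjusted p = 0.0120), and 3 were lower, including the glycine transporter SLC6A9 (-1.46 ± 0.24, adjusted p = 0.00329).

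Immediate early genes, which report recent signalling, had 3 of 18 higher, against 13.6% of all genes, and 0 lower. EGR1 had 53.7, 137 and 207 CPM in transition libraries, against 37.8, 48.8 and 116 CPM in stem libraries (1.10 ± 0.34, adjusted p = 0.0348), and FOS rose by 1.02 ± 0.30 (adjusted p = 0.0295). Their calls were lost in 8 and 7 of the 12 fits that each left out 1 library, with adjusted p up to 0.0886 and 0.0722. The FOS call was also lost with day as a random block (limma, adjusted p = 0.0502). No member of the immediate early genes passed when day 1 or day 6 was left out. In the BMP group 2 of 19 genes were higher and 2 lower, with a rise of the ligand BMP2 (1.09 ± 0.15, adjusted p = 0.00286), which separated the phases, and a fall of the ligand BMP4 (-0.99 ± 0.25, adjusted p = 0.0150), whose fitted changes were -1.42 in Anterior and -0.06 in Posterior. Of 21 WNT targets and modulators 1 was lower, the antagonist DKK1 (-3.80 ± 0.87, adjusted p = 0.0103), which had at most 0.115 CPM in transition libraries and 2.75 CPM in stem libraries. The DKK1 call was lost with day as a random block (limma, -3.09, adjusted p = 0.0705) and with 1 value per day (adjusted p = 0.0867). Interferon genes were higher in 3 of 13 cases, genes of cortical hem and choroid plexus lower in 2 of 15, neural crest genes higher in 2 of 10 and lower in 1, and ventral forebrain genes higher in 2 of 8 and lower in 1.

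Of the 137 named genes that passed, 8 lost the call with day as a random block, with adjusted p between 0.0502 and 0.218 (limma). Beside MYOCD, DKK1 and FOS these were HES5 (-0.94, adjusted p = 0.0583), ANGPTL4 (2.63, adjusted p = 0.218), PDK4 (2.23, adjusted p = 0.142), LDHA (-0.80, adjusted p = 0.0583) and FLT1 (-2.64, adjusted p = 0.0688). Without day 1 in the stem phase 28 lost it, with adjusted p between 0.0509 and 0.169. These were PTBP1, SLC32A1, CDK6, NES, HES5, PAX6, JAG1, TRIM71, GFAP, HEPACAM, OLIG1, OLIG2, ANGPTL4, PDK4, LDHA, LOX, P4HA1, TXN, CCN2, ACTA2, INHBA, FLT1, CAV1, NCAN, EGR1, FOS, MEIS2 and BMP4. Without day 6 the 13 genes DLL4, ANGPTL4, PDK4, LDHA, LOX, P4HA1, CCN2, ACTA2, INHBA, FLT1, NCAN, EGR1 and FOS lost it, with adjusted p between 0.0513 and 0.102. With 1 value per day 40 calls were lost, and with no region block 62.

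Changes were also measured between single days, within and across the medium switch. The steps, from day 1 to 5, 5 to 6 and 6 to 8, differ in length. Their counts and medians are therefore not rates per day and do not rank the steps by speed. Day 5 against day 1, both in FGF2 medium, gave 708 genes higher (3.62%) and 466 lower (2.38%), 6% of those tested (2 libraries against 2, edgeR test with day as a factor). That count of 1174 was 634 and 17 without the Anterior library of day 1 or day 5, 573 and 98 without the Posterior library of day 1 or day 5, and 2086 by the DESeq2 Wald test. Day 6 against day 5, the first day without FGF2, gave 0 calls (0%), with 1107 genes at an unadjusted p under 0.05, a lowest adjusted p of 0.826 and 11 calls by the DESeq2 Wald test. Day 8 against day 6 gave 48 genes higher and 33 lower (0.414%), with 0 calls without either library of day 6, 5 without the Anterior and 38 without the Posterior library of day 8, and 724 by the DESeq2 Wald test. Of the pan-neuronal genes 10 were higher on day 5 than on day 1, with a median of 0.94, and the medians of the next steps were 0.44 from day 5 to 6 and 0.52 from day 6 to 8. The cholesterol list had medians of -0.71, -0.39 and 0.01 over these 3 steps, and the replication list had medians of -0.45, -0.30 and -0.20. For TGF-beta and YAP targets the medians were -1.90, -0.15 and -0.37. For mitosis genes the medians were 0.37, -0.22 and -0.30, and no member passed between day 5 and day 1.

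Within single regions, 3 libraries against 3, 1358 genes (6.94% of those tested) were higher and 1275 (6.52%) lower in Anterior, 13.5% in all, and 745 (3.81%) were higher and 501 (2.56%) lower in Posterior, 6.37% in all. These 2633 genes of Anterior and 1246 of Posterior had 434 in common in the same direction and 10 in opposite directions. Single libraries weighed heavily here. Without day 1, 3, 5, 7 or 8 the Anterior count was 574, 47, 4237, 0 and 434, and without day 1, 3, 6, 7 or 8 the Posterior count was 0, 0, 414, 0 and 0. The test of the difference between the regions called 4 genes (0.0204%), all with a more negative change in Anterior, and 2294 genes had an unadjusted p under 0.05. With day as a block it called 267 genes, and the DESeq2 Wald test called 510. The count was 521 without the Anterior library of day 5, 28 without the Posterior library of day 5 and 9 without either library of day 6. It was 0 without the Anterior library of day 7 or day 8 or the Posterior library of day 1, day 3 or day 7. OLFML2B, a secreted matrix protein, had 25.0, 29.6 and 27.6 CPM in Anterior transition libraries, against 135, 130 and 80.4 CPM in Anterior stem libraries, a change of -2.07 ± 0.22. In Posterior it had 28.3, 33.2 and 25.5 CPM in transition libraries, against 16, 14.6 and 23.8 CPM in stem libraries, a change of 0.68 ± 0.22, and the difference of -2.75 ± 0.31 had an adjusted p of 0.0210. PXDN, a peroxidase that crosslinks basement membrane collagen, had 233, 185 and 191 CPM in Anterior transition libraries, against 471, 679 and 378 CPM in Anterior stem libraries. In Posterior it had 107, 123 and 128 CPM in transition libraries, against 58.3, 72.8 and 73.3 CPM in stem libraries. PXDN changed by -1.33 ± 0.19 in Anterior and 0.81 ± 0.19 in Posterior, a difference of -2.14 ± 0.27 (adjusted p = 0.0340). The other two genes called carry LOC names. Both named calls were lost in part of the fits that left out 1 library, 5 of 12 for OLFML2B and 6 of 12 for PXDN, with adjusted p up to 0.150. The summed fibroblast markers were far higher in Anterior on every day, in the values given above, and their part in this difference was not tested.

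**Figure D4:**
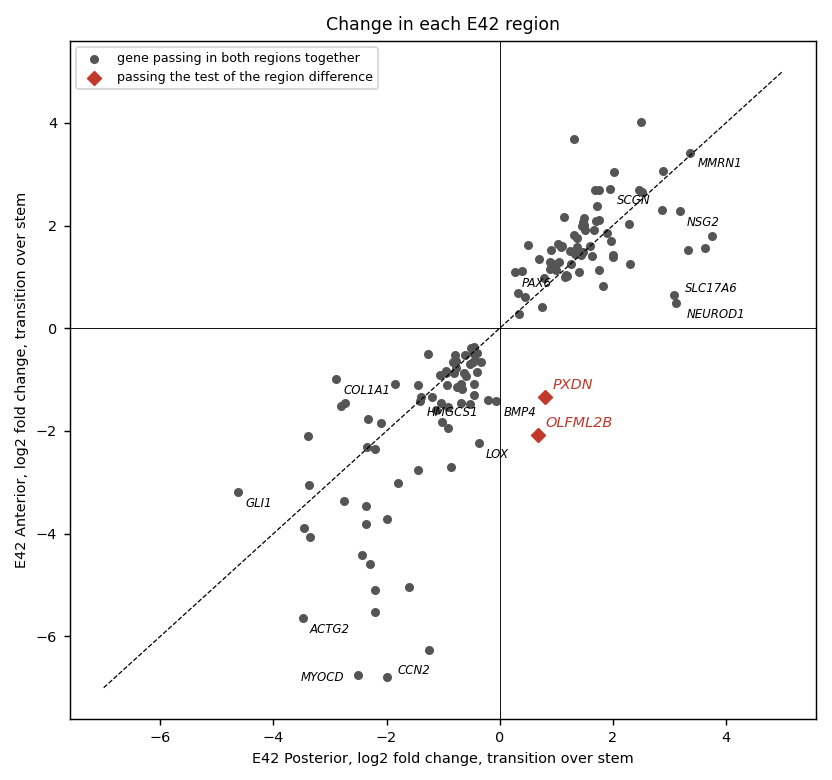
Log2 fold change of transition over stem in E42 Anterior (vertical axis) against E42 Posterior (horizontal axis), 3 libraries against 3 in each region, with a point for each named gene that passed and a dashed line of equal change. OLFML2B and PXDN (diamonds) lie below 0 in Anterior and above 0 in Posterior. NEUROD1 and SLC17A6 lie below the line, with changes of 0.49 and 0.64 in Anterior and 3.12 and 3.08 in Posterior.

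Some excitatory lineage genes had larger fitted changes in Posterior and others did not, with 2.70 in Anterior and 2.46 in Posterior for NEUROG2 and 1.60 and 1.59 in these regions for EOMES. List counts within a region are to be read beside its shares over all genes. These were 6.94% higher and 6.52% lower in Anterior, and only 3.81% and 2.56% in Posterior. The list of intermediate progenitor and excitatory genes had 3 members higher and 1 lower in Anterior (median 0.62), and 7 higher and 0 lower in Posterior (median 1.95). TBR1 had changes of -0.34 in Anterior and 3.14 in Posterior (difference -3.48, adjusted p = 0.0641 without a day block). Without that block the difference was -2.63 for NEUROD1 (adjusted p = 0.0945) and -2.43 for SLC17A6 (adjusted p = 0.113). With day as a block the differences of TBR1 (-3.47 ± 0.42, edgeR adjusted p = 0.0373) and SLC17A6 (-2.41 ± 0.37, adjusted p = 0.0390) passed and that of NEUROD1 (-2.66 ± 0.55, adjusted p = 0.0535) did not. OLFML2B (-2.74 ± 0.38, adjusted p = 0.0428) and PXDN (-2.11 ± 0.25, adjusted p = 0.0373) also passed with the block. GABAergic genes had 8 members higher and 1 lower in Anterior (median 1.15), and 0 of either kind in Posterior (median 0.80). TGF-beta and YAP targets had 14 members lower in Anterior (median -2.50), and 0 in Posterior (median -0.41), and ribosomal protein genes had 9 lower in Anterior (median -0.23), and 17 in Posterior (median -0.35). For none of these lists did a member pass the test of the difference without the day block. With it, 3 of 14 intermediate progenitor and excitatory genes and 3 of 19 TGF-beta and YAP targets passed, all more negative in Anterior, and 0 GABAergic and 0 ribosomal protein genes. Of 15 glutamatergic projection neuron genes 1 was then more positive and 4 more negative in Anterior, and of 21 collagens 4 were more negative.

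The nearest comparison in the series is the same phase change at embryonic day 77 (E77), with Frontal and Occipital cortex, 6 libraries against 6. In a fit of both ages 20314 genes were tested. At E42 3038 genes were higher and 2549 lower (27.5%), and at E77 2692 were higher and 2766 lower (26.9%). The difference of the change, E42 minus E77, passed in 57 genes (0.281%), 31 of them positive and 26 negative, and in 2462 at an unadjusted p under 0.05. With day as a block it passed in 900 genes and by the DESeq2 Wald test in 481. Leaving out 1 library gave between 15 genes, without the E42 Posterior library of day 7, and 423, without the E42 Anterior library of day 5. Age, fetus, sampled region and culture run cannot be told apart.

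**Figure D5:**
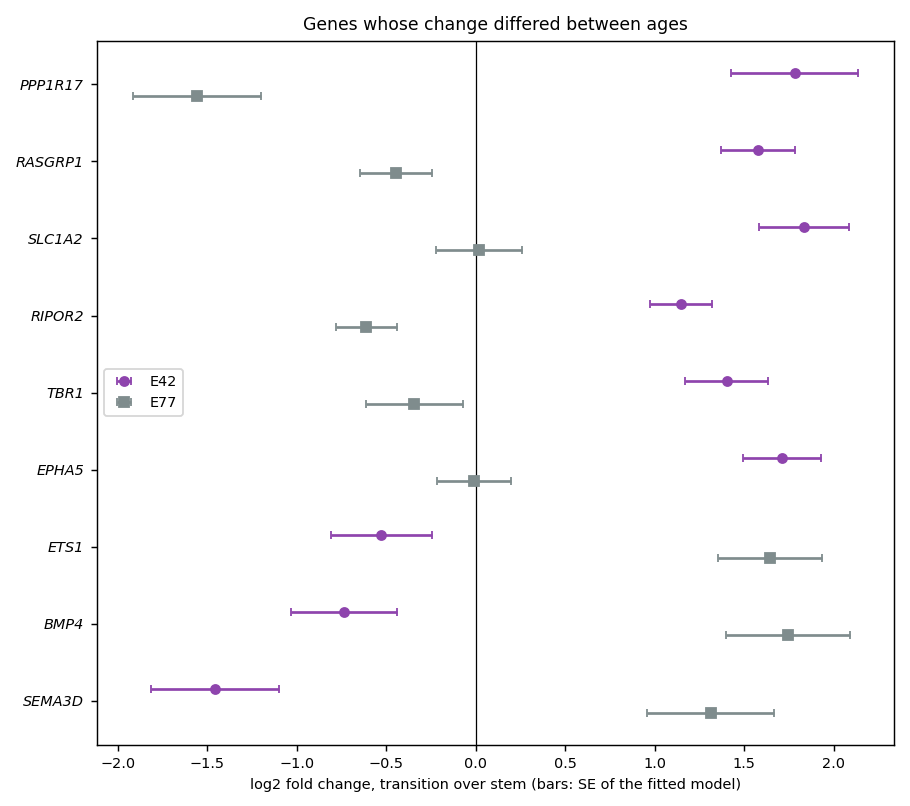
Log2 fold change of transition over stem at E42 (circles) and E77 (squares) with the standard error of the fit, for 9 genes whose change differed between ages. PPP1R17 lies at 1.78 at E42 and -1.56 at E77, and BMP4 at -0.74 at E42 and 1.74 at E77.

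PPP1R17 changed in opposite directions at the 2 ages. It averaged 11.6 ± 10.0 CPM in E42 transition libraries and 2.68 ± 1.98 CPM in E42 stem libraries, and 1.98 ± 0.82 CPM in E77 transition libraries and 6.25 ± 5.66 CPM in E77 stem libraries (SD, n = 6 each). The E42 change was 1.78 ± 0.35 and the E77 change -1.56 ± 0.36, a difference of 3.34 ± 0.50 (edgeR adjusted p = 0.00722). RIPOR2, a regulator of cell polarity, changed by 1.15 ± 0.17 at E42 and by -0.61 ± 0.17 at E77 (difference 1.76 ± 0.24, adjusted p = 0.00392). RASGRP1, an activator of RAS, had log2 fold changes of 1.57 ± 0.21 at E42 and -0.45 ± 0.20 at E77 (difference 2.02 ± 0.29, adjusted p = 0.00392), and EPHA5 by 1.71 ± 0.22 at E42 and by -0.01 ± 0.21 at E77 (difference 1.72 ± 0.30, adjusted p = 0.0198). These 4 calls held in each of the 24 fits that left out 1 library.

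SLC1A2 had log2 fold changes of 1.83 ± 0.25 at E42 and 0.02 ± 0.24 at E77, with mean stem levels of 3.59 CPM at E42 and 15.1 CPM at E77 (difference adjusted p = 0.0262). TBR1 passed at E42 in this fit (1.40 ± 0.23, adjusted p = 0.000464), which gives each region and phase a mean of its own, so that the value averages the unlike changes of Anterior and Posterior. The TBR1 change at E77 was -0.34 ± 0.27. In the negative direction, BMP4 had a log2 fold change of -0.74 ± 0.29 at E42, which did not pass in this fit, and of 1.74 ± 0.35 at E77 (difference -2.48 ± 0.45, adjusted p = 0.0222). Without the Frontal library of day 5 the BMP4 difference was -3.20. SEMA3D, a secreted guidance cue, changed by -1.46 ± 0.36 at E42 and by 1.31 ± 0.36 at E77, and ETS1, an endothelial and mesenchymal factor, had log2 fold changes of -0.53 ± 0.28 at E42 and 1.65 ± 0.29 at E77. Of the 24 fits that left out 1 library, the call was lost in 11 for SLC1A2, 15 for TBR1, 3 for BMP4, 3 for SEMA3D and 8 for ETS1.

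The lists given next had medians of the same sign at both ages, and some other lists did not. Oligodendrocyte lineage genes had a median of -0.38 at E42 and 0.22 at E77, and G1 genes had -0.27 and 0.16. FGF and ERK targets had a median of 0.32 at E42 and 0 at E77, where 3 were higher and 3 lower. Pan-neuronal genes had 15 of 18 higher at E77 (median 1.91), and 17 of 22 cholesterol genes were lower there (median -0.73). Replication genes were lower in 15 of 22 cases at E77 (median -0.43) and ribosomal protein genes in 25 of 27 (median -0.37). Radial glial genes were lower in 9 cases at E77 and higher in 0 (median -0.45), against 13.6% lower and 13.3% higher over all genes. Contractile genes showed smaller medians at E77, -0.19 for TGF-beta and YAP targets with 1 member lower, and -0.25 for pericytes and smooth muscle with 2 lower, and no member of either list passed the test of the age difference.

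The E42 terminal libraries of days 11, 14 and 17 (6 libraries) place these levels on a longer course, without a test. NSG2 averaged 421 ± 138 CPM, DCX 2375 ± 315 CPM, GRIN2B 93.3 ± 44.2 CPM and DUSP4 580 ± 111 CPM there, each mean above the gene's highest transition library. GAD1 averaged 120 ± 11.6 CPM, within its transition range. HMGCS1 averaged 405 ± 64.5 CPM, between the transition and stem ranges, FGFBP3 averaged 47.8 ± 13.7 CPM, and LIN28A averaged 0.313 ± 0.239 CPM, inside its stem range (SD, n = 6 each).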

How the data were processed

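Poly(A) RNA was sequenced as strand-specific (dUTP) libraries, per the labels' protocols. The authors deposited raw read counts per gene, which were tested here, and RPKM values per gene, which the authors scaled by gene length and library size and which served only as an alternative. STAR and featureCounts are named in the submitters' processing notes, without versions. The genome build was not given in the sources used here.

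Libraries were grouped by the age, region and day in their labels. Counts were fitted in R 4.3.3 with edgeR 4.0.16 (robust quasi-likelihood test, region as block, TMM factors computed once over the 38 libraries and ranging from 0.899 to 1.047, filterByExpr with a count minimum of 10), with Benjamini-Hochberg adjustment over all genes tested and a threshold of 0.05. CPM values use the same factors. limma 3.58.1 and DESeq2 1.42.0 gave alternatives, the RPKM ones with pseudocounts of 1 and 0.1 and, except where stated, an RPKM of at least 1 in 3 libraries. The region and age differences are interaction terms.

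Day is a label that both regions share. Same-day libraries deviated together from the mean of their region and phase on 6 of 6 days (correlations of 0.128 to 0.54, and a consensus of 0.256). A drift over days that both regions share would also give positive correlations. A day effect and such a drift cannot be told apart here. No pair of the 66 library pairs agreed within sampling noise. The fit was tested before use on simulated counts that held no same-day correlation and no drift over days. That test therefore does not cover these features of the data.

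The genes compared and all gene lists were chosen with earlier results of these data known. Genes named are the 15 largest rises and falls with a symbol, a mean of at least 10 CPM in the higher phase and the same direction in both regions, up to 4 passing members of each list (or up to 2 by level where fewer than 2 passed), and the largest region and age differences, of which the text prints some. DCX, NEFM, PTBP1, EOMES, GAD1, MKI67, NES, SOX2, ETV4, HOPX, SREBF2, FASN, DCN, IGF2, IGFBP4, IGFBP5, IGFBP6, NFAT5 and NCAN were named after their values were seen. Some genes that these rules name are not reported here. Promoter sequences were not used here.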

Additional observations from a re-analysis of the deposited data

Results flagged for a closer look

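Each of the 144 named genes was examined in both phases for a library whose gap to its nearest neighbour took a larger part of the range of the 6 libraries than Dixon's critical value allows. This held in 27 of the 288 groups of 6. A rate of about 1 in 20 groups flagged by chance assumes libraries that differ only by random spread. Each group here pools both regions and the days of a phase, so that rate does not apply. The part of region and day in these flags was not tested. The values below are CPM in the library that stood apart, beside the median of the other libraries of its phase. In the Anterior transition library of day 6 the values were ACAN at 28.6 CPM beside 0.516 and DKK1 at 0.115 CPM beside 0.0516. In the Anterior transition library of day 7 the values were AQP4 at 63.6 CPM beside 27.0 and PDK4 at 25.1 CPM beside 6.2. In the Anterior transition library of day 8 the values were SLC17A7 at 13.5 CPM beside 4.65, LRFN2 at 31.3 CPM beside 8.97 and SPRY4 at 118 CPM beside 43.5. In the Posterior transition library of day 7 it was MCM5 at 61.1 CPM beside 42.9.

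In the Anterior stem library of day 1 the values were MYOCD at 94.8 CPM beside 0.923, CCN2 at 2602 CPM beside 28.4, FLT1 at 119 CPM beside 2.35 and ACAN at 400 CPM beside 3.36. In the Anterior stem library of day 5 the values were NEFM at 193 CPM beside 69.0, KCNJ3 at 6.80 CPM beside 2.32, CALB2 at 172 CPM beside 28.2, UNC5C at 19.1 CPM beside 5.26, MMRN1 at 5.02 CPM beside 0.680, CDH7 at 10.5 CPM beside 2.46, ANGPTL4 at 6.77 CPM beside 0.568, PHGDH at 268 CPM beside 307 and DCN at 1191 CPM beside 9.88. In the Posterior stem library of day 1 it was ETV4 at 98.6 CPM beside 35.8. In the Posterior stem library of day 5 the values were NSG2 at 39.1 CPM beside 12.3, NEUROG2 at 7.76 CPM beside 0.333, NEUROD4 at 1.70 CPM beside 0.121, EOMES at 113 CPM beside 12.7 and LRFN2 at 2.87 CPM beside 1.02.

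The change from stem to transition differed between the E42 regions, Anterior minus Posterior, by -2.75 for OLFML2B (edgeR adjusted p = 0.0210) and by -2.14 for PXDN (adjusted p = 0.0340). It differed between ages, E42 minus E77, by 3.34 for PPP1R17, 2.02 for RASGRP1, 1.81 for SLC1A2, 1.76 for RIPOR2, 1.74 for TBR1 and 1.72 for EPHA5, and by -2.77 for SEMA3D, -2.48 for BMP4 and -2.17 for ETS1, with edgeR adjusted p between 0.00392 and 0.0430. All these are on the log2 scale and come from interaction terms.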

How the results depend on the processing

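For transition against stem, genes higher and lower numbered 1111 and 599 with no region block, 995 and 560 with 1 value per day, and 1524 and 1069 without day 1. The replicate block of day gave 1397 lower. On log2(RPKM + 1), log2(RPKM + 0.1) and unfiltered log2(RPKM + 1) values 1327, 1341 and 959 genes were lower. DESeq2 size factors gave 2384 higher and 2542 lower, and the DESeq2 Wald test 2810 and 3126. The region difference gave 8 calls with no filter, 267 with the replicate block and 510 by DESeq2, and Posterior alone gave 773 with no filter. The age difference gave 91 calls with DESeq2 size factors, 900 with the replicate block and 481 by DESeq2. Day 8 against day 6 gave 142 with no filter and 724 by DESeq2, day 5 against day 1 gave 2086 by DESeq2 and day 6 against day 5 gave 11. The DESeq2 and leave-one-out fits of the day comparisons were chosen after seeing the data. The cause of these shifts was not tested, apart from fewer libraries where some were left out.

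Leaving out 1 library in turn gave 1919 to 2869 genes higher and 1271 to 2294 lower. The ranges were 0 to 4237 for Anterior, 0 to 1858 for Posterior, 0 to 521 for the region difference, 15 to 423 for the age difference, 4131 to 5609 for E77, 17 to 634 for day 5 against day 1, 0 to 0 for day 6 against day 5 and 0 to 38 for day 8 against day 6. A lone library left in a day was assumed to vary like the others. Of 137 named genes that passed between the phases, 126 kept their call without each E42 library. These genes were named with results of these data known, most of them for large changes. Their count therefore does not measure how stable calls are in general. There was 1 library per region and day, and the effect of read depth was not tested.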
